A study of Arabidopsis thaliana with 20 samples.

Results

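The shoot meristem homeobox genes described here are the class I KNOX genes *STM* (AT1G62360), *KNAT1* (AT4G08150), *KNAT2* (AT1G70510) and *KNAT6* (AT1G23380), and the WOX gene *WUS* (AT2G17950). They were chosen by name, as the 5 members of 27443 protein-coding genes of *Arabidopsis thaliana* over which reads were counted, and the rule uses no measured value. ChIP-seq, the sequencing of DNA that an antibody pulls down with its histone, was applied to 10-day-old seedlings of the Columbia ecotype. The antibodies recognised histone H3, its methylated forms H3K4me3 and H3K36me3, H2A.Z, a variant of H2A, and the linker histone H1. The WT group was Col-0. The *h3.3kd* group carried the *htr4* and *htr8* insertions together with an artificial microRNA against *HTR5*, driven by the *HTR5* promoter, so that it is a knockdown of the histone variant H3.3 and not a knockout. The sources used here do not state which *h3.3kd* line was used for ChIP-seq. There were 2 replicates for each genotype and antibody, 20 libraries in all, and nothing states whether the replicates were separate cultures of plants, so the p-values measure the spread between these libraries, which may be technical.

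Class I KNOX proteins are homeodomain transcription factors that keep cells of the shoot meristem undifferentiated. They act with BELL partners, raise cytokinin and restrain gibberellin. Their genes are kept off in leaves by Polycomb group proteins and, for some of them, by the AS1 and AS2 repressors. WUS is made in the organizing centre of the meristem, moves into the stem cells above it and activates *CLV3*, whose peptide limits *WUS* in turn. H3K4me3 and H3K36me3 accompany transcription, H2A.Z sits at the 5′ end of most genes and also along the bodies of responsive or silent genes, and H1 binds linker DNA. The meristem is a small part of a seedling. The values are averages over all its cells, in which fewer cells with a mark and less of the mark per cell cannot be told apart.

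Depth ranged from 8688846 reads (H3, WT replicate 2) to 68090065 reads (H2A.Z, *h3.3kd* replicate 2), with a median of 20010926.5. The labels of the genotype were checked at *HTR4* and *HTR8*. The longest stretch without a read in the 10 *h3.3kd* libraries was 46 bp in *HTR4* and 95 bp in *HTR8*. The 0 reads of *h3.3kd* there follow from that choice. The 10 WT libraries had 238 and 499 reads in these stretches, with at least 4 and 12 in every library. The artificial microRNA against *HTR5* was not checked. As a check of the tissue, the 4 genes of green seedlings (*RBCS1A*, *PSBO1*, *RCA* and *LHCA3*) had log2 H3K36me3/H3 from 0.01 to 1.27 in every library, and the 3 seed storage genes (*CRA1*, *CRU3* and *OLEO1*) from -1.08 to -0.01. For H3K4me3 the ranges of these lists overlapped, 0.72 to 1.37 against -0.20 to 0.96. The 4 H3 libraries differed in shape. The median of log2 H3 density upstream of genes over that in gene bodies was -0.08 in WT replicate 2, against -0.64 in WT replicate 1 and -0.58 and -0.96 in *h3.3kd* replicates 1 and 2. H3 is the denominator of the other values, and the part of this difference in the results was not tested.

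The 5 genes lie on chromosomes 1, 2 and 4 of the TAIR10.1 assembly. *STM* occupies bases 23058582 to 23062063 of chromosome 1 on the minus strand, with 4 exons. *KNAT1*, also named *BREVIPEDICELLUS*, occupies bases 5147699 to 5151159 of chromosome 4 on the minus strand, with 5 exons. *KNAT2* (bases 26576486 to 26582879, plus strand) and *KNAT6* (bases 8297241 to 8302651, minus strand) are both on chromosome 1. These paralogues have 5 exons each and share a layout with a long intron 3, of 4162 bp in *KNAT2* and 3676 bp in *KNAT6*. *WUS* occupies bases 7808871 to 7810811 of chromosome 2 on the minus strand, with 3 exons. The KNOX genes were long, 3461 to 6394 bp against a median of 2078 bp over all genes, and poor in G and C, 34.6 to 36.04% against a median of 38.9%, while *WUS* had 1941 bp and 37.2%. Reads fell evenly enough for counting, with 1.61 to 4.39% of the positions of a locus without a read in the 20 libraries and at most 0.725% of read starts with an exact copy elsewhere in the genome. The 500 bp after *STM* hold the end of AT1G62350 and the gene *MIR413*, and the 500 bp after *KNAT6* hold the 5′ start of AT1G23360 (*MENG*), which is on the same strand, so those flanks include reads of neighbouring genes. The flanks of the other 3 genes hold no annotated gene.

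The 250 bp before the annotated start of *STM* and of *WUS* are shown for the H2A.Z of their gene bodies. Among the members in WT, its mean leaned most to the 3′ end in *STM* and was highest in *WUS*. The 300 bp after the end of *KNAT2* are shown because 4 of the 5 flank differences with an unadjusted p under 0.05 lay there. All are 5′ to 3′ on the strand of the gene, from TAIR10.1, and each begins at the base farthest from the start of *STM* or *WUS*, or at the base after the end of *KNAT2*. In the first and second, capitals mark GAGAGA, known as a GAGA element, and AAACCCTA, known as a telobox, each searched for on both strands. In the third, capitals mark runs of 6 or more A or of 6 or more T.
*STM* upstream, chr1:23062064-23062313, minus strand: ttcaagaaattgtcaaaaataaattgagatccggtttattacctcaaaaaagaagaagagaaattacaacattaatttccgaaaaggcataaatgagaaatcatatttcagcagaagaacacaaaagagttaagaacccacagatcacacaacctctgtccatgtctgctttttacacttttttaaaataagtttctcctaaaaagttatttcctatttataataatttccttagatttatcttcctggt
*WUS* upstream, chr2:7810812-7811061, minus strand: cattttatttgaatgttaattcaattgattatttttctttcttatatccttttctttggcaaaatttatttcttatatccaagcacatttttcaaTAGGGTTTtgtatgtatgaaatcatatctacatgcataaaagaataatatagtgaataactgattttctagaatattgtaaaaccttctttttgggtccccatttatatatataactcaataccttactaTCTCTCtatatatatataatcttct
*KNAT2* downstream, chr1:26582880-26583179, plus strand: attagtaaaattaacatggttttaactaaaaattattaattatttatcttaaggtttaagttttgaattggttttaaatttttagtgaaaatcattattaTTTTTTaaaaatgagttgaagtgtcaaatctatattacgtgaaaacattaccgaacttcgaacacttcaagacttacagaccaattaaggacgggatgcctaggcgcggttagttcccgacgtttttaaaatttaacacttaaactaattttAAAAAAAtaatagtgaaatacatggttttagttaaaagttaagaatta
*WUS* held 1 match to each motif and *STM* none. In the same window, not shown, *KNAT1* held 1 GAGA match and *KNAT6* held 2, both without a telobox, and *KNAT2* held neither motif. Of all genes, 20.6% held the GAGA motif and 4.49% the telobox in the same window, so a match is a description of these letters alone. The whole 500 bp after *KNAT2* had 24.0% G and C, at percentile 3.57 of all genes, and 6 such runs of A or T, as many as or more than which 2.29% of genes had.

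Levels are given as log2 of antibody over H3, where RPM (reads in a window per 1000000 reads of the library) of the antibody, plus 0.1, are divided by RPM of H3, plus 0.1, in the same replicate number of that genotype. A value of 0 therefore means equal shares of both libraries, and fold changes of windows with few reads are understated. In WT, the gene bodies lay below the median of all genes in both marks of transcription, though not all below the lower quartile. That quartile was -0.52 for H3K36me3 and -0.06 for H3K4me3. The percentiles are over all genes and were not matched for gene length. H3K36me3 over H3 of the 5 genes lay between percentile 15.4 (*KNAT1*) and percentile 35.8 (*KNAT6*) of all genes, and H3K4me3 over H3 between 21.4 (*KNAT2*) and 44.8 (*WUS*). H2A.Z over H3 was near the middle for the KNOX genes, percentiles 50.8 to 60.3, and at percentile 91.9 for *WUS*. H1 over H3 ranged from percentile 32.9 (*KNAT6*) to 75.4 (*KNAT2*). H3 itself, in RPM per kb, lay between 8.18 and 11.1 over the bodies in every WT and *h3.3kd* library.

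**Figure D1:**
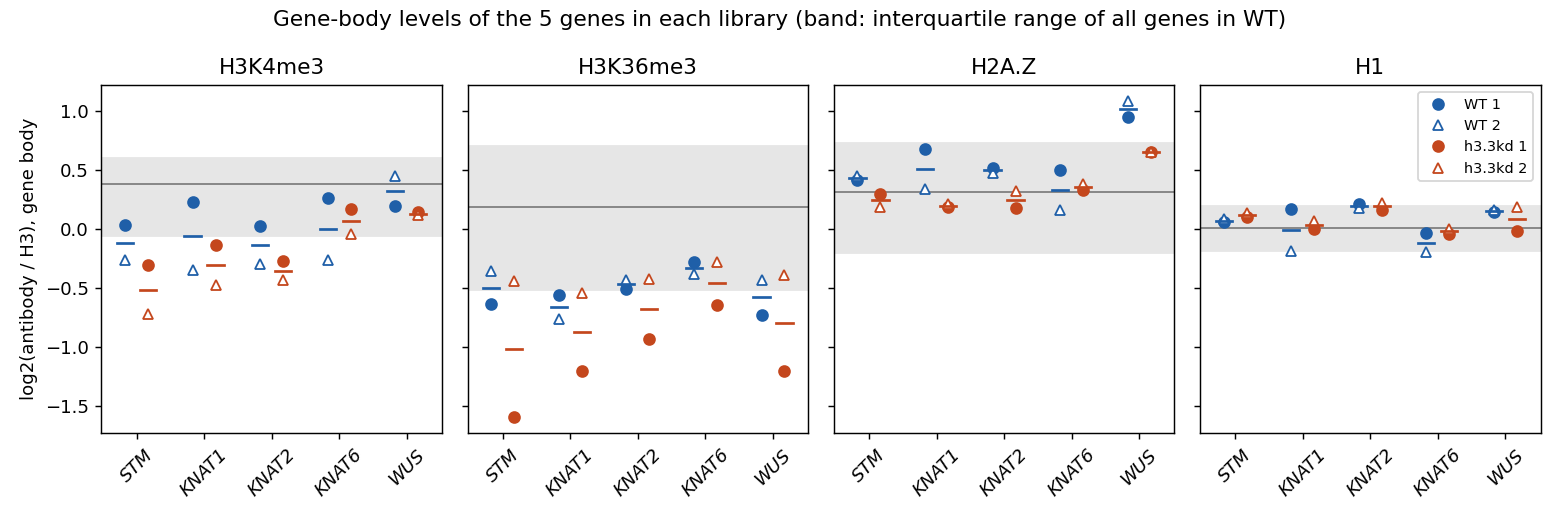
Log2 of antibody over H3 in the gene body of the 5 genes, in each of the 4 libraries of an antibody (circles, replicate 1; triangles, replicate 2; bars, means; WT blue, *h3.3kd* orange). The grey line and band are the median and the interquartile range of all genes in WT. *WUS* stands above the band for H2A.Z in WT, and all 5 genes lie below the line for H3K36me3.

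*WUS* had the highest H2A.Z of the 5 genes in every library. Its log2 H2A.Z/H3 was 0.95 and 1.09 for WT and 0.66 and 0.66 for *h3.3kd*, from 698 to 2083 H2A.Z reads per library. *KNAT1* followed in WT with 0.68 and 0.34, *KNAT2* with 0.52 and 0.48, *STM* with 0.42 and 0.46, and *KNAT6* with 0.51 and 0.16. *WUS* exceeded *KNAT1*, its neighbour in this order, by 0.27 to 0.75 in 4 of 4 libraries, whereas the order among the 4 KNOX genes was not kept in all libraries for any pair. Over the 10 pairs of members for each of 5 antibodies, the smallest p of an exact two-sided sign-flip permutation test over 4 libraries is 0.125, or 0.272 after adjustment over 50 pairs, so no pair can pass a threshold of 0.05. For the 4 antibodies set over H3, 20 of 40 pairs kept their order in all 4 libraries.

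*WUS* was again first for H3K4me3, at 0.20 and 0.45 (WT) and 0.15 and 0.12 (*h3.3kd*). It was followed by *KNAT6* at 0.27 and -0.26 in WT, *KNAT1* at 0.23 and -0.35, *STM* at 0.03 and -0.26 and *KNAT2* at 0.03 and -0.30. The WT replicates of the KNOX genes were further apart than the means of neighbours in the order, and *WUS* was above *KNAT6* in 2 of 4 libraries, while *KNAT6* was above *KNAT1* in 4 of 4. For H3K36me3 the order in WT was *KNAT6* (-0.28 and -0.38), *KNAT2* (-0.51 and -0.43), *STM* (-0.64 and -0.36), *WUS* (-0.72 and -0.43) and *KNAT1* (-0.56 and -0.76). Only *KNAT6* and *KNAT2*, among neighbours, kept that order in 4 of 4 libraries. For H1 the order was *KNAT2* (0.21 and 0.18), *WUS* (0.15 and 0.16), *STM* (0.06 and 0.09), *KNAT1* (0.17 and -0.19) and *KNAT6* (-0.03 and -0.20), and *KNAT2* was above *WUS*, and *KNAT1* above *KNAT6*, in 4 of 4 libraries. *KNAT2* and *KNAT6*, which have the same exon layout, thus stood at opposite ends for H1.

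The 5 genes also differed in where along the body H2A.Z and H3K4me3 lay. The difference between the first and the last 500 bp of the body, in log2 of antibody over H3, was taken for genes of at least 1500 bp. In *STM* H2A.Z was higher at the 3′ end in every library. Its value in the first 500 bp was -0.02 and -0.23 for WT and -0.35 and -0.52 for *h3.3kd*, and in the last 500 bp 1.16 and 0.98 for WT and 0.94 and 0.91 for *h3.3kd*. The difference of -1.20 ± 0.02 (SD, n = 2) in WT was at percentile 0.507 of 18945 genes, whose median was 0.70, and the *h3.3kd* mean of -1.36 was at percentile 0.137. *STM* H3K4me3 showed the same direction, with first minus last at -0.26 and -0.64 for WT and -0.61 and -0.97 for *h3.3kd*, where the median gene in WT had 1.17. The neighbour AT1G62350 lies outside the body of *STM*.

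*KNAT2* had the reverse layout. Its H2A.Z in the first 500 bp was 0.93 and 1.32 for WT and 0.92 and 0.37 for *h3.3kd*, and in the last 500 bp -0.50 and -0.44 for WT and -0.34 and -0.31 for *h3.3kd*. First minus last was 1.43 and 1.76 in WT, at percentile 95.3, and 1.26 and 0.67 in *h3.3kd*, at percentile 91.7. *KNAT6* H2A.Z was 0.55 and 0.73 higher at the 5′ end in WT, and -0.01 and -0.17 in *h3.3kd*, with no overlap of the genotypes, while the median of all genes was 0.70 in WT and 0.37 in *h3.3kd*. For H3K4me3, *KNAT6* had 1.35 and 1.42 for WT and 0.75 and 0.63 for *h3.3kd*. In *KNAT6* the H3 reads of the same windows moved too, with first minus last at -0.02 and -0.26 for WT and 0.57 and 0.51 for *h3.3kd* on the log2 scale. These differences between genotypes were noticed in the values and have no test. For H2A.Z first minus last, the genotypes did not overlap in 4 of the 5 genes beside 37.5% of all genes, for H3K4me3 in 2 beside 30.0%, and for H3 itself in 3 beside 31.2%. *KNAT1* had no fixed polarity of H2A.Z, with 0.07 and -1.37 in WT, and in *WUS* both ends were high, so that first minus last was -0.17 and 0.18 in WT, against 0.42 and 0.29 in *h3.3kd*.

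**Figure D2:**
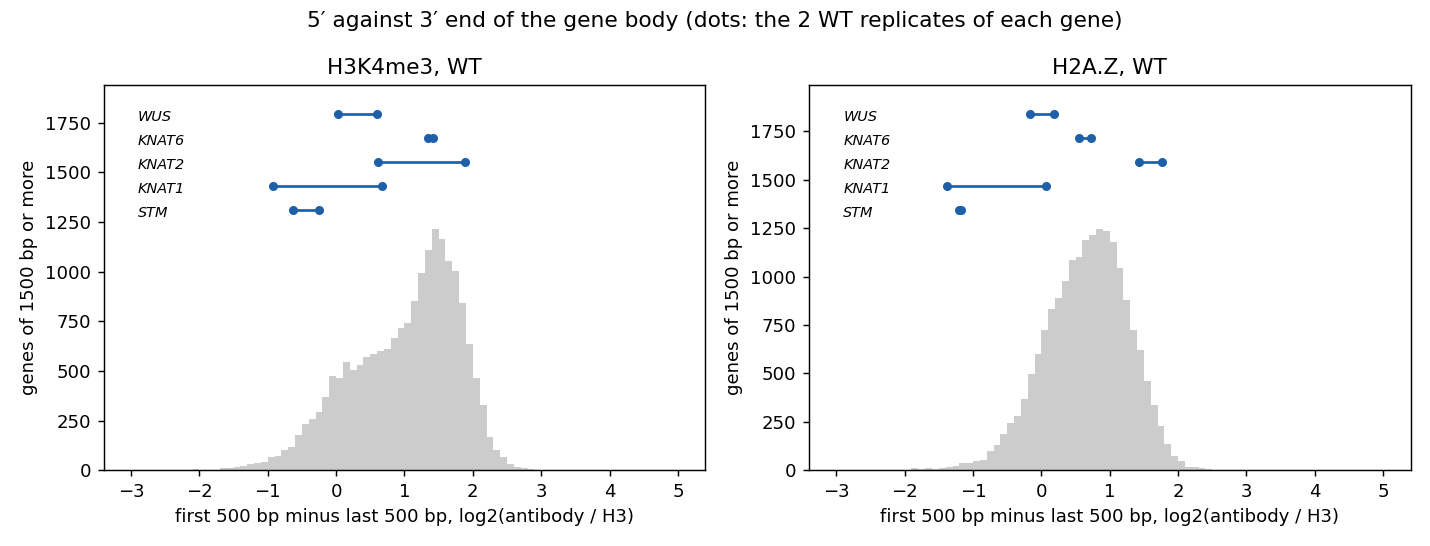
Log2 of H3K4me3 and H2A.Z over H3 in the first 500 bp minus the last 500 bp of the gene body, for all genes of at least 1500 bp in WT (grey histogram of the mean of 2 replicates) and for the 5 genes (dots, the 2 WT replicates). For H2A.Z, *STM* lies far to the left of most genes and *KNAT2* on the right of the distribution.

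**Figure D3:**
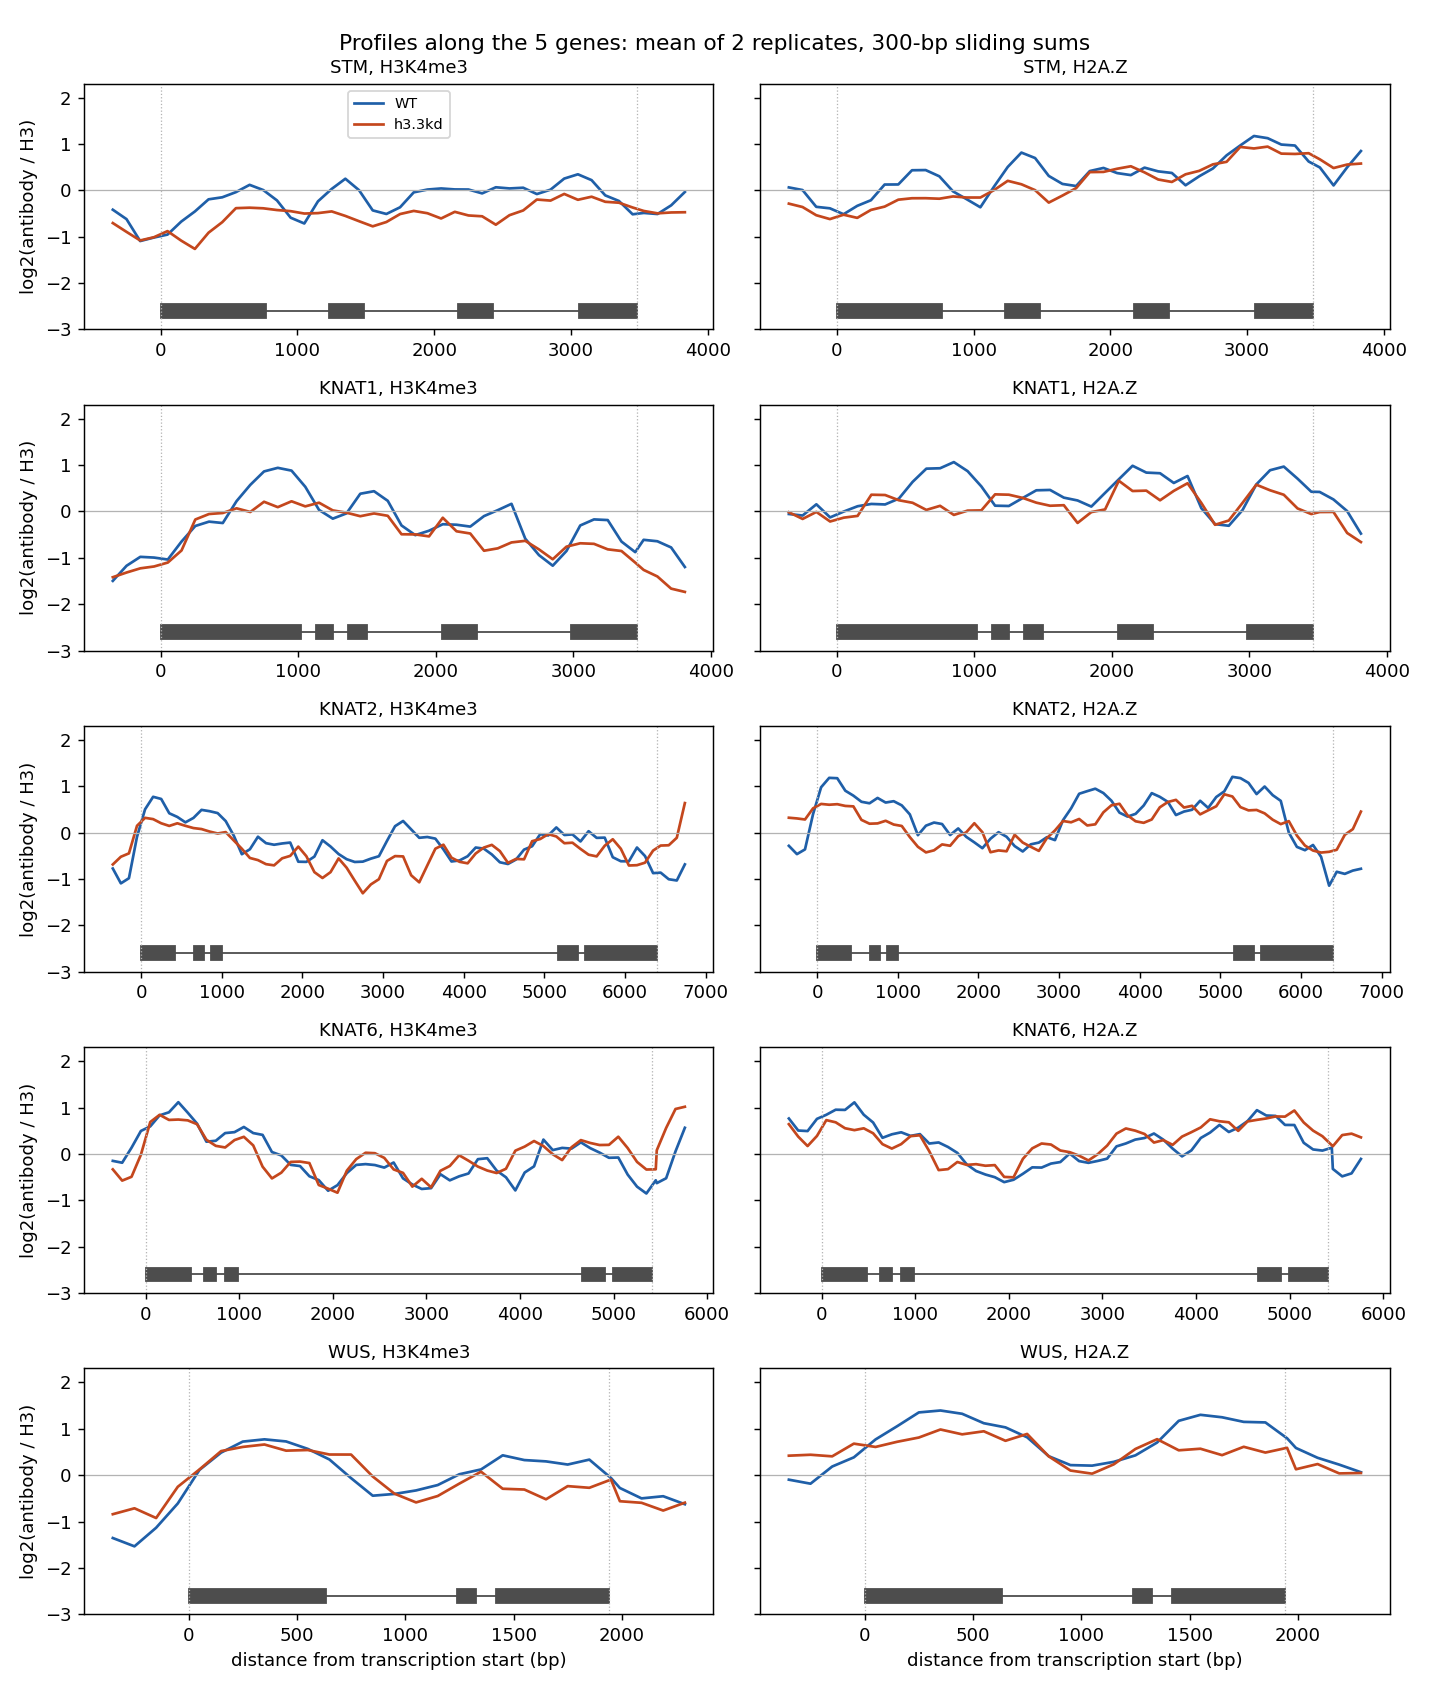
Profiles of log2 H3K4me3/H3 (left) and log2 H2A.Z/H3 (right) along each gene against the distance from the transcription start in bp, as means of 2 replicates over sliding windows of 300 bp; boxes are exons, the line introns, and dotted lines the ends of the gene. H2A.Z of *STM* is highest toward the 3′ end, and in *KNAT2* and *KNAT6* it is low in the 5′ part of the long intron.

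The long intron 3, cut at its midpoint into a 5′ and a 3′ part, was not uniform. In *KNAT2* log2 H2A.Z/H3 was 0.13 and -0.16 in the 5′ part of the intron (2081 bp) in WT and 0.75 and 0.64 in the 3′ part, and in *h3.3kd* -0.15 and -0.20 against 0.21 and 0.81. The 5′ part was lower by 0.70 ± 0.28 (SD over 4 libraries) and lower in 4 of 4. In *KNAT6* the 5′ part (1838 bp) had 0.20 and -0.48 in WT against 0.38 and 0.17 in the 3′ part, and was lower in 4 of 4 libraries, by 0.44 ± 0.21. H3K4me3 did not follow, being lower in the 5′ part in 3 of 4 libraries in *KNAT2* and in 2 of 4 in *KNAT6*. Exons of *WUS* had more H3 per kb than its introns, by 0.90 and 0.39 for WT and 0.77 and 1.20 for *h3.3kd* on the log2 scale, and H2A.Z over H3 was higher in its exons in 4 of 4 libraries. Neither was particular to *WUS*. H3 was higher in exons in 4 of 4 libraries in *STM*, *KNAT1* and *KNAT6*, and in 3 of 4 in *KNAT2*. For H2A.Z over H3 this held in 4 of 4 in *KNAT6*, by a mean of 0.43 as in *WUS*. It held in 2 of 4 in *STM* and in 3 of 4 in *KNAT1* and *KNAT2*. In all 5 genes the contrast of exons and introns in H3 was larger in *h3.3kd* replicate 2 (0.53 to 1.20) than in WT replicate 2 (-0.01 to 0.39), which are the libraries with the lowest and the highest H3 upstream of genes.

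The comparison of *h3.3kd* with WT asks whether loss of H3.3 changes the chromatin of these genes. None of the 5 genes passed the test in any of the 15 comparisons of an antibody and a window (gene body, 500 bp upstream, 500 bp downstream) by limma with adjustment over all windows, and the smallest adjusted p of the 75 tests was 0.405. Of the 25 tests in gene bodies, 0 had an unadjusted p under 0.05, and of the 50 tests in flanks 5 had. Over all genes the share with such a p was 2.29% (H1) to 7.89% (H2A.Z) in gene bodies. In flanks it was 1.58% (H3 upstream) to 6.32% (H2A.Z downstream). Few windows passed anywhere. In gene bodies 0% passed for H3, 0.0589% for H3K4me3, 0.0553% for H3K36me3, 0% for H2A.Z and 0% for H1. Upstream, 0% passed for H3, 0.0332% for H3K4me3, 0.0148% for H3K36me3, 0% for H2A.Z and 0% for H1, and downstream 0.00369%, 0.0738%, 0.0222%, 0% and 0% in the same order of antibodies. Where no window passed in limma, limma-voom called 0 as well, and 781 (H3), 2142 (H2A.Z) and 622 (H1) gene bodies, 430, 1371 and 622 upstream flanks, and 1713 (H2A.Z) and 681 (H1) downstream flanks had an unadjusted p under 0.05. On simulated reads without the differences in shape between libraries, the same fit recovered 64% of log2 changes of 1 and 100% of log2 changes of 2 in H2A.Z over gene bodies, among 27160 genes, with 11.8% of its calls false. For H3 over gene bodies, among 27163 genes, it recovered 95% and 100%, with 2.99% of calls false. The simulated spread was fixed, and the changes were placed in windows with more reads than the filter asks for. Flanks and the other antibodies were not simulated, so these shares do not give the power there. The SE of a member reached 1.01 for H3K4me3 upstream. Leaving out WT replicate 1 raised the number of called windows to as many as 8137 in a comparison.

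H2A.Z over gene bodies was lower in both *h3.3kd* libraries than in both WT libraries for 4 of the 5 genes, a separation that 39.6% of all genes had in either direction. The log2 difference was -0.36 ± 0.22 (SE) for *WUS*, -0.31 ± 0.19 for *KNAT1*, -0.25 ± 0.18 for *KNAT2*, -0.19 ± 0.18 for *STM* and 0.03 ± 0.19 for *KNAT6*, with limma adjusted p from 0.713 to 0.981. The median of the 5 genes was -0.25 and that of all genes -0.06. The values that separated were close to each other in *KNAT2*, 0.52 and 0.48 in WT against 0.18 and 0.32, and *KNAT6* overlapped, with 0.34 and 0.39 in *h3.3kd*. The value for *KNAT6* fell below 0 without the H3 denominator, with H3 replicate 1 as denominator and in limma-voom, and ranged from -0.14 to 0.20 when 1 library was left out, while the other 4 stayed below 0 in every setting tried.

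For H3K4me3, *STM* had 0.03 and -0.26 for WT and -0.31 and -0.72 for *h3.3kd*, a difference of -0.40 ± 0.33 with no overlap but within the spread (limma adjusted p = 1.00). *WUS* did not overlap either, and the other 3 genes did, at differences from -0.24 to 0.06. Such separation in 2 of the 5 genes stands beside 30.5% of all genes. For H3K36me3 all 5 genes had a lower mean in *h3.3kd*, with a difference of -0.52 ± 0.45 in *STM* and -0.13 to -0.22 in the others, and in all 5 the genotypes overlapped, which leaves 0 separated genes beside 25.3% of all genes. The lower means rested on *h3.3kd* replicate 1, in which *STM* had -1.60 against -0.44 in *h3.3kd* replicate 2. Without *h3.3kd* replicate 1, the difference was above 0 in 5 of 5 genes, from 0.05 to 0.19. H1 over gene bodies differed by -0.07 to 0.10, with 1 gene separated (*STM*, 0.06 and 0.09 in WT against 0.11 and 0.14) beside 26.9% of all genes. H3 in RPM differed by -0.10 (*KNAT6*) to 0.22 (*WUS*), with 3 genes separated beside 31.5% of all genes, and the median of all genes was 0.09.

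**Figure D4:**
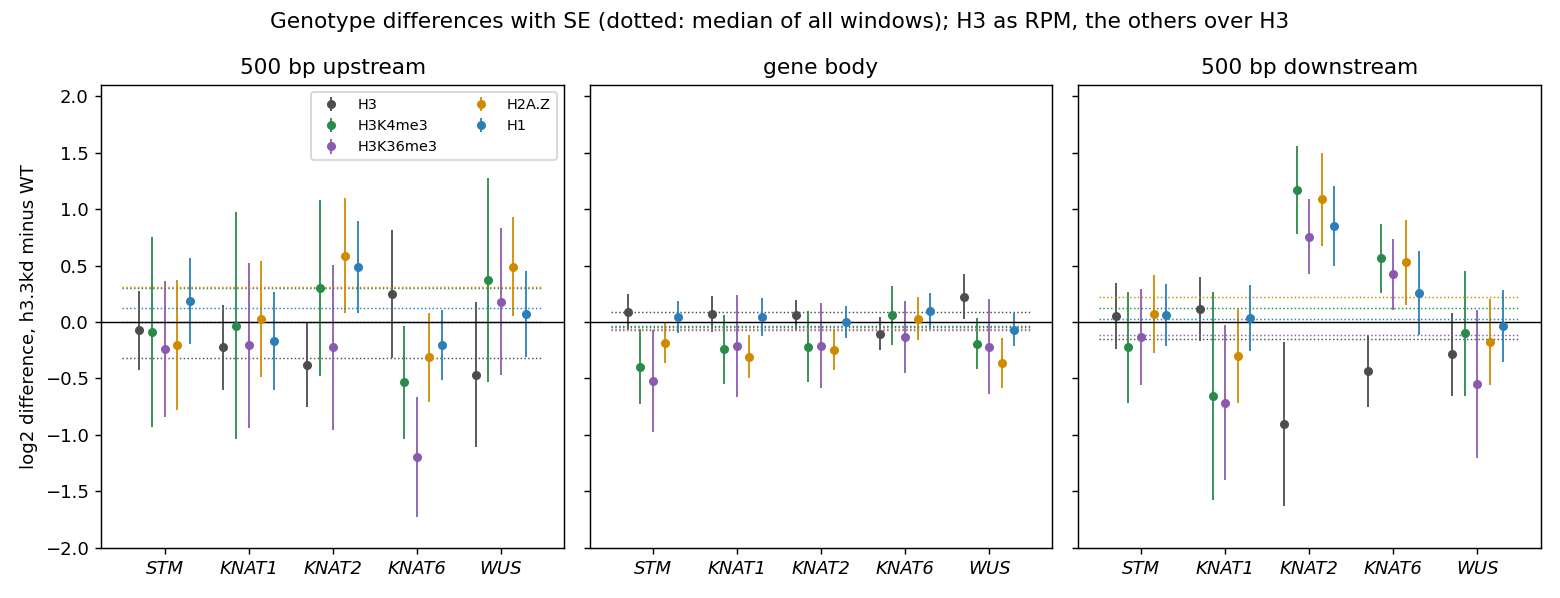
Log2 difference of *h3.3kd* minus WT for each of the 5 genes, with SE from limma (2 libraries per genotype), for the 500 bp upstream, the gene body and the 500 bp downstream. Dotted lines are the medians of all windows of an antibody; H3 is in RPM and the other antibodies are over H3. The points farthest from 0 are those of the *KNAT2* downstream flank and H3K36me3 upstream of *KNAT6*.

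In 8 of the 10 flank comparisons the median of all windows was shifted by over 0.1, and the differences of the members are given beside it. The median was -0.32 for H3, 0.30 for H3K4me3, 0.31 for H2A.Z and 0.12 for H1 upstream, and -0.15 for H3, 0.12 for H3K4me3, -0.11 for H3K36me3 and 0.22 for H2A.Z downstream, while it was -0.0033 for H3K36me3 upstream and 0.026 for H1 downstream. These medians depended on 1 library and on the denominator. Without WT replicate 2 the upstream medians were -0.044 for H3, -0.094 for H3K4me3 and 0.022 for H2A.Z, and without the H3 denominator they were -0.0045 for H3K4me3, -0.018 for H2A.Z, -0.17 for H1 and -0.33 for H3K36me3. The 500 bp after *KNAT2*, whose sequence begins above, had few H3 reads. There were 37 and 25 for WT and 30 and 15 for *h3.3kd*, which is 4.93 and 5.75 RPM per kb against 3.86 and 1.95. Relative to H3, every other antibody was higher there in both *h3.3kd* libraries than in both WT libraries. These 4 ratios share the H3 libraries as denominator, and of all downstream windows 26.5% (H3K4me3), 29.2% (H3K36me3), 37.5% (H2A.Z) and 27.8% (H1) were separated in either direction. Log2 H3K4me3/H3 was -0.30 and -1.13 for WT and 0.45 and 0.46 for *h3.3kd*, a difference of 1.17 ± 0.39 with a limma p of 0.0028 and an adjusted p of 0.405. The differences were 1.09 ± 0.41 for H2A.Z, 0.85 ± 0.36 for H1 and 0.76 ± 0.33 for H3K36me3, with limma adjusted p of 0.774, 1.00 and 1.00. H3 in the denominator differed by -0.90 ± 0.73 (limma adjusted p = 0.958). In RPM per kb, H1 was 3.82 and 3.50 for WT and 3.66 and 3.37 for *h3.3kd*, and without the H3 denominator the differences were 0.27 for H3K4me3, 0.18 for H2A.Z, -0.06 for H1 and -0.15 for H3K36me3. Without WT replicate 1 the flank passed for H3K4me3 (1.58, limma adjusted p = 0.000975), H2A.Z (1.46, 0.0102) and H1 (1.02, 0.0468), in fits that called 3004, 2296 and 1079 windows and in which the lone WT library is assumed to vary like the *h3.3kd* libraries. Without WT replicate 2 the differences were 0.76, 0.71 and 0.68, with limma adjusted p of 0.494, 0.476 and 0.712. These values were singled out after they were seen, as the flanks with an unadjusted p under 0.05.

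The fifth such flank was the 500 bp upstream of *KNAT6*, where log2 H3K36me3/H3 was -0.38 and 0.33 for WT and -1.99 and -0.46 for *h3.3kd*. The difference of -1.20 ± 0.53 had a limma p of 0.024 and an adjusted p of 1.00. The genotypes did not overlap, as in 26.5% of all upstream windows for H3K36me3, on 59 and 53 reads of H3K36me3 for WT against 9 and 25 for *h3.3kd*. These libraries differ in depth, and in RPM per kb the values were 4.35 and 5.82 for WT against 1.66 and 3.73 for *h3.3kd*. With H3 replicate 1 as the denominator of both replicates it was -1.27 with a limma adjusted p of 0.0138, in a fit that called 2787 windows. Both replicates of a genotype share 1 H3 library in that fit, so its p leaves out the spread between H3 libraries. The remaining 45 flank differences lay between -0.90 (H3 downstream of *KNAT2*) and 0.59 (H2A.Z upstream of *KNAT2*). H2A.Z upstream of *KNAT2* was -0.36 and -0.20 for WT and 0.35 and 0.27 for *h3.3kd*, a difference of 0.59 ± 0.51 beside the median of 0.31. Upstream of *STM* the WT replicates alone spanned 0.44 and -0.80 for H2A.Z and 0.24 and -1.83 for H3K4me3.

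Genes that act with the members were described from lists of class II KNOX genes, BELL partners, the CLAVATA pathway, CUC boundary genes, repressors of KNOX genes, HAM cofactors, the other WOX genes, hormone genes downstream of KNOX, and Polycomb group genes. Of these 45 genes 0 passed in either direction for any antibody over the gene body, with a smallest limma adjusted p of 0.456. Their median log2 difference was -0.05 for H3K4me3, -0.12 for H3K36me3, -0.13 for H2A.Z and -0.04 for H1, against -0.04, -0.07, -0.06 and -0.04 over all genes. The smallest adjusted p belonged to H2A.Z of *CLV3*, the target of WUS, with 0.89 and 1.16 for WT and 0.38 and 0.02 for *h3.3kd*, a difference of -0.82 ± 0.22. H3, its denominator, differed by 0.64 ± 0.28 in *CLV3*. The other ratios of *CLV3* to H3 were lower too, by -0.85 for H3K4me3, -0.96 for H3K36me3 and -0.41 for H1. The part of H3 in these differences was not tested. In level, *CLV3* was like *WUS* for H2A.Z, with a WT mean of 1.02 for both genes. The boundary gene *CUC2* had 0.82 and the root counterpart of *WUS*, *WOX5*, had 0.90. The class II gene *KNAT3*, which is widely expressed, differed from the class I members in level. Its WT mean was 0.88 for H3K4me3 (percentile 94.0), 0.75 for H3K36me3 and -0.51 for H1. This did not hold for the whole class, as *KNAT7*, another class II gene, chosen after its values were seen, had -0.058 for H3K4me3 (percentile 25.1), -0.48 for H3K36me3 (percentile 27.7) and 0.52 for H2A.Z. The class II genes *KNAT4* and *KNAT5*, added in the same way, lay on the side of *KNAT3*. Both had 0.60 for H3K4me3, with 0.38 and 0.82 for H3K36me3 and -0.41 and -0.46 for H1. *AS1*, which represses KNOX genes in leaves, had 0.57 for H3K4me3, 0.44 for H3K36me3 and 0.29 for H2A.Z.

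Over the 16 values of a gene body (4 antibodies over H3, 2 genotypes, 2 replicates), likeness was measured by the root mean square difference among 27112 genes. The nearest genes were AT4G10740 (0.110) and *WRKY71* (0.115) to *STM*, *NAC075* (0.0994) and *AP1* (0.102) to *KNAT1*, AT4G16920 (0.0887) and AT4G14370 (0.0940) to *KNAT2*, AT1G64060 (0.0772) and *CRK42* (0.1001) to *KNAT6*, and *SMB* (0.0919) and AT3G12730 (0.0931) to *WUS*. For comparison, the median gene was 0.614 to 0.7995 away. Among the members themselves *KNAT1* and *KNAT2* were closest, 0.177 apart, and *STM* was 0.204 from *KNAT1* and 0.198 from *KNAT2*. *WUS* was 0.363 to 0.408 from each KNOX gene, at ranks 4735 to 6219 among the genes nearest to it.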

How the data were processed

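The authors mapped ChIP-seq reads to TAIR10 with Bowtie, kept reads that map to 1 place and removed reads at the same coordinates. The deposited files list read positions, neither counts nor normalized values; the version of Bowtie is not given in the sources used here. In 4 libraries (replicate 2 of H3K4me3 and H2A.Z, both genotypes) the lists name neither a strand nor the organelle genomes. No list holds more than 2 reads at a position. Positions were matched to genes of TAIR10.1, on which no read ran past a chromosome end.

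Reads were counted by their leftmost base over gene bodies and flanks of 500 bp, and scaled to RPM, per 1000000 reads of the library. Windows needed 10 reads on average in the libraries of the antibody and in those of H3, which held for the 5 genes in all 15 comparisons. Log2 of antibody over H3, with 0.1 added to both, was compared between genotypes by limma 3.58.1 in R 4.3.3 (lmFit, then eBayes with its trend option), with Benjamini-Hochberg adjustment over all windows and a threshold of 0.05. Levels of H3 are in RPM, per kb where genes are compared. The fit was tested on simulated data with 200 changed windows, for gene bodies of H3 and of H2A.Z only. Python 3.11.15, numpy 2.4.6 and pandas 2.3.3 did the rest. Alternatives were no H3 denominator, H3 replicate 1 as denominator, a pseudocount of 0.5, no filter, limma-voom, a replicate block, library size from the 5 chromosomes, centring on the median of all windows, positions counted once, reads placed 25 bp to the right, and leaving out each replicate.

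Members are defined by name, but they and the lists were proposed with earlier results of these data known. Named genes are the 5 members, *HTR4* and *HTR8*, 5 comparison genes (*KNAT3*, *WOX5*, *CLV3*, *AS1* and *CUC2*), called genes of the lists and the 2 nearest genes to each member. The genes of the tissue check, the neighbours in the flanks, *KNAT4*, *KNAT5* and *KNAT7* are named besides. Read counts give the depth, so precision was judged from the spread between replicates.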

Additional observations from a re-analysis of the deposited data

How the results depend on the processing

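Counts of called windows depended on the setting, while the gene bodies of the members gained no call in any setting (smallest adjusted p 0.189). Of 424 member values under an alternative, 387 kept their direction and side of the threshold, 33 turned in sign and 4 passed. The replicate block and the crossed block cannot change a difference in this balanced design, only its p. Turns in sign were most frequent without the H3 denominator (9 of 25) and without *h3.3kd* replicate 1 (8 of 31). The causes were not tested. In the order body, upstream, downstream, the counts without an H3 denominator were 1, 2 and 0 for H3K4me3 and 0, 0 and 0 for H3K36me3. With H3 replicate 1 as denominator they were 115, 824 and 624 for H3K4me3, 131, 2787 and 2557 for H3K36me3, 150, 835 and 899 for H1, and 125 and 395 in the flanks for H2A.Z. H3 has no values for these denominators. Where H3 replicate 1 is the denominator, both replicates of a genotype share 1 H3 library, so the spread of H3 does not enter the p-values. A pseudocount of 0.5 gave 7, 1 and 3 for H3K4me3, 5, 2 and 0 for H3K36me3, 1 for H2A.Z bodies and 0 for H3 downstream. No filter gave 1, 22 and 33 for H3, 0, 0 and 0 for H3K4me3 and 0, 0 and 0 for H3K36me3. Limma-voom gave 0, 1 and 0 for H3K4me3, 1, 0 and 0 for H3K36me3 and 0 for H3 downstream, and centring 2, 1 and 0 for H3K4me3, 1 and 0 in the flanks for H3K36me3 and 0 for H3 downstream. Positions counted once gave 1, 5 and 1 for H3K4me3 and 92 for H2A.Z bodies. Library size from the 5 chromosomes gave 1 for H2A.Z bodies. Reads placed 25 bp to the right gave 9 and 18 for H3K4me3 in bodies and upstream, 1 for H3K36me3 downstream and 0 for H3 downstream.

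The replicate numbers share no stated batch and there are only 2 pairs, and the deviations of same-numbered libraries correlated from -0.266 to 0.324. The replicate block gave 2 for H3 bodies, 0 for H3 downstream, 25, 1 and 0 for H3K4me3, 133 for H3K36me3 bodies and 3 downstream, 207 for H2A.Z bodies and 1 downstream, and 21 for H1 bodies. It changed no call of a member. The crossed block, chosen after seeing the data, gave 0 for H3 upstream, 2 for H3 downstream and 5 for H3K36me3 downstream.

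Leaving out 1 replicate each, the counts ranged from 0 to 4428, 0 to 1642 and 0 to 2447 for H3, from 4 to 2383, 0 to 8137 and 0 to 3004 for H3K4me3, from 3 to 52, 0 to 89 and 0 to 30 for H3K36me3, from 0 to 1830, 0 to 4382 and 0 to 2296 for H2A.Z, and from 0 to 428, 0 to 0 and 0 to 1079 for H1. Without WT replicate 1 the count was highest in 13 of the 15 comparisons; the exceptions were H3K36me3 bodies and H1 upstream.

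Among the gene bodies of the members, signs turned as follows. Without an H3 denominator, *KNAT6* had -0.042 for H3K4me3, -0.076 for H2A.Z and -0.0077 for H1, *WUS* 0.032 for H3K4me3, 0.0045 for H3K36me3 and 0.16 for H1, and *KNAT2* 0.053 for H1. The downstream flank of *KNAT2* had -0.15 for H3K36me3 and -0.055 for H1. With H3 replicate 1 as denominator, *KNAT6* had -0.094 for H3K4me3, -0.13 for H2A.Z and -0.060 for H1, and *KNAT1* -0.018 for H1. Centring gave -0.013 and -0.028 for H3 of *KNAT1* and *KNAT2* and 0.023 for H1 of *KNAT2*. Limma-voom gave -0.0084 for H2A.Z of *KNAT6*, and reads placed 25 bp to the right 0.000082 for H1 of *KNAT2*. Without a replicate the ranges were -0.072 to 0.25 and -0.26 to 0.055 for H3 of *STM* and *KNAT6*, and -0.53 to 0.046 and -0.20 to 0.32 for H3K4me3 of *KNAT1* and *KNAT6*. For H3K36me3 they were -1.10 to 0.058 (*STM*), -0.55 to 0.12 (*KNAT1*), -0.47 to 0.048 (*KNAT2*), -0.31 to 0.054 (*KNAT6*) and -0.62 to 0.19 (*WUS*). H2A.Z of *KNAT6* ranged from -0.14 to 0.20, and H1 from -0.13 to 0.22 (*KNAT1*), -0.037 to 0.029 (*KNAT2*) and -0.17 to 0.035 (*WUS*). The number of pairs of members in the same order in all libraries was 20, 23 without an H3 denominator, and 30 within replicate 1 or replicate 2 alone.

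Depth limits the flanks most, where a member had as few as 9 reads in a library.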
